A study of Homo sapiens with 4 samples.

Results

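The genes of the mitochondrial ribosomal proteins were followed in NOMO-1, an established human cell line of monocytic acute myeloid leukaemia, after reduction of the transcription factor ZFX. Members were all protein-coding genes whose symbol starts with MRPL or MRPS and a number and that have a probe set annotated with that gene alone. This gave 73 genes of 18417 on the array, 48 named for the large subunit (MRPL) and 25 for the small subunit (MRPS). The rule used no difference between arrays, but it was set with earlier results of these data known. Where a gene had several such probe sets, the one with the highest mean over the 4 arrays stood for it. MRPL51, MRPS6, MRPS24 and MRPS28 have the same kind of symbol but no probe set of their own and were not analysed here, and 1 transcribed pseudogene was left out.

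Mitochondrial ribosomes translate the few proteins encoded by mitochondrial DNA, which are subunits of the respiratory chain and the ATP synthase. Their RNA comes from mitochondrial DNA, while all their proteins are encoded in the nucleus, made in the cytosol and imported. Part of these proteins have counterparts in bacterial ribosomes and the rest are found only in mitochondria. Acute myeloid leukaemia cells are known to depend on mitochondrial translation.

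Each of 4 lentiviral constructs was measured on 1 expression array. Hairpins ZFX-SH3 and ZFX-SH1 (SH3 and SH1 below) formed the ZFX knock-down group, and the control group, labelled ZFX wild type, held a scrambled hairpin (SCR) and a GFP virus (LEN-GFP). All 4 cultures were infected at a multiplicity of infection of 1, and total RNA was taken 48 h after selection. The labels do not say whether the cultures were independent, so that p-values measure the spread between these constructs and arrays, which may be technical. In whole-culture RNA, fewer cells of a type and less RNA per cell cannot be told apart.

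Values are log2 intensities of probe sets, and a difference of 1 is a 2-fold change. Median intensities lay between 184.8 and 189.8 on the 4 arrays. ZFX had log2 intensities of 10.12 on SH3 and 10.13 on SH1, against 10.66 on SCR and 10.65 on LEN-GFP, so both hairpins lay well under both controls at 68.9% and 69.7% of the control level. In limma ZFX passed the threshold on SH3 (-0.54, adjusted p = 0.0185), but not on SH1 (-0.52, adjusted p = 0.121) or for the pair (-0.53, adjusted p = 0.797). Of 12 markers of monocytic leukaemia, 9 had a probe set of their own and all 9 were above the limit for dim genes, with summed intensities of 35831 to 36945 on the hairpin arrays and 35279 to 35985 on the controls. Of 16 markers of T, B, erythroid, epithelial and fibroblast cells, 9 were under that limit, the defining T cell genes CD3D, CD3E and CD3G among them. The other 7 were 2 B cell, 2 erythroid and 3 epithelial and fibroblast genes, and none was called on either hairpin. T cell genes summed to 257 and 258 on the hairpins, against 242 and 251 on the controls. Sums on the hairpins were 408 to 433 for B cell, 410 to 471 for erythroid and 752 to 777 for epithelial and fibroblast genes. On the controls these sums were 390 to 410, 393 to 459 and 749 to 813. All 73 mitochondrial ribosomal protein genes were above the limit (lowest mean log2 7.28) and are among the 12892 genes tested. Their median log2 intensity was 10.10 to 10.30 on the 4 arrays, against 9.14 to 9.23 over all genes tested. The background shares given below are not matched for intensity.

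The pair of hairpins was first set against the pair of controls, to ask which of these genes differ when ZFX is reduced by either hairpin. No member passed an adjusted p of 0.05 in limma, where 0 of 12892 genes passed (0% of the background). At an unadjusted p under 0.05 there were 4 members lower (5.48%, background 3.26%) and 0 higher (background 2.78%). Lower values were more common than higher ones, with 47 of 73 members below 0 (64.4%, background 50.8%) and a median difference of -0.07, against -0.0029 over all genes tested. Both hairpin arrays lay below both controls on 26 members (35.6%, background 19.0%) and above both on 9 (12.3%, background 18.2%).

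MRPL19, MRPL57, MRPL42 and MRPS26 had the widest gaps below the controls, and in none of these 4 did the hairpins differ from each other past the threshold. MRPL19, whose bacterial counterpart sits at the interface of the subunits, had 8.32 on SH3 and 8.64 on SH1, against 8.96 on SCR and 8.98 on LEN-GFP. MRPL57, found only in mitochondria, had 8.67 on SH3 and 8.89 on SH1, against 9.23 on SCR and 9.21 on LEN-GFP. In both genes the controls differed from each other by less than 0.03 and each hairpin lay at least 0.32 under them. MRPL42, also without a bacterial counterpart, had 10.49 on SH3 and 10.41 on SH1, against 10.86 on SCR and 10.77 on LEN-GFP. MRPS26 of the small subunit had 8.88 on SH3 and 8.76 on SH1, against 9.20 on SCR and 9.15 on LEN-GFP. The differences of the pair were -0.49 (SE 0.15) for MRPL19, -0.44 (SE 0.13) for MRPL57, -0.36 (SE 0.11) for MRPL42 and -0.36 (SE 0.12) for MRPS26 (2 against 2 arrays, limma adjusted p = 0.797 for each). These are the 4 members with an unadjusted p under 0.05.

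On the other side, MRPS27 and MRPS25 had the widest gaps above the controls. MRPS27, a pentatricopeptide repeat protein of the small subunit, had 10.93 on SH3 and 10.90 on SH1, against 10.68 on SCR and 10.73 on LEN-GFP. MRPS25 had 10.10 on SH3 and 10.15 on SH1, against 9.95 on SCR and 9.94 on LEN-GFP. The groups did not overlap on either gene, with differences of 0.21 (SE 0.10) and 0.18 (SE 0.11), neither past the threshold. MRPL54 (0.16) and MRPS7 (0.14) followed with gaps of 0.05 and 0.03, and neither size is settled, since MRPL54 was at 0.25 without LEN-GFP and 0.07 without SCR, and MRPS7 at 0.24 without SH1 and 0.05 without SH3. MRPS2, the counterpart of a bacterial small-subunit protein, lay at nearly the same level on both hairpins, at 10.70 on SH3 and 10.69 on SH1, against 10.89 on SCR and 10.98 on LEN-GFP (difference -0.25, SE 0.10). MRPS30 had 10.38 on SH3 and 10.58 on SH1, against 10.69 on SCR and 10.80 on LEN-GFP (difference -0.26, SE 0.12). Neither MRPS2 nor MRPS30 passed the threshold.

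SH3 alone was next set against the controls. The error of the lone array came from the control pair, drawn strongly towards that of all genes of like intensity. A call says that this 1 array lies far from the control mean by that error, and SH3 has no replicate. On SH3, 8 members fell past an adjusted p of 0.05 in limma (11.0%, background 7.00%) and 0 of 73 rose (background 6.33%, or 13.3% for either direction). At an unadjusted p under 0.05, 17 members were lower (23.3%, background 13.8%) and 1 was higher (MRPL35, background 12.5%). In all, 51 of 73 members were lower on SH3 (69.9%, background 50.3%), with a median of -0.11 against -0.0015 over all genes. The 8 genes were MRPL33, MRPL20, MRPL19, MRPL47, MRPL57 and MRPL9 of the large subunit and MRPS17 and MRPS34 of the small subunit, at 44.8% to 71.7% of their control levels. On all 8, SH3 was the lowest of the 4 arrays. SH1 lay below both controls on 5 of them and not on MRPL33, MRPL47 and MRPS17.

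MRPL33 (probe set 8041027), a small protein with a bacterial counterpart, had 9.63 on SH3 and 10.82 on SH1, against 10.84 on SCR and 10.75 on LEN-GFP. SH3 stood alone, and SH1 lay between the controls. On SH3 this was a difference of -1.16 (SE 0.12, adjusted p = 6.91e-04 in limma), the lowest of the 73 members. MRPL47 (probe set 8092265), the counterpart of a bacterial protein at the exit of the peptide tunnel, had 11.09 on SH3 and 11.77 on SH1, against 11.72 on SCR and 11.58 on LEN-GFP. Here SH1 was the highest array and SH3 the lowest, with a difference of -0.56 on SH3 (SE 0.11, adjusted p = 0.00964 in limma). MRPS17 (probe set 8132922), whose bacterial counterpart binds ribosomal RNA directly, had 8.21 on SH3 and 8.85 on SH1, against 8.65 on SCR and 8.87 on LEN-GFP. Its difference on SH3 was -0.55 (SE 0.16, adjusted p = 0.0488 in limma), close to the threshold, and SH1 lay within the controls.

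MRPL20 (probe set 7911559), the counterpart of a protein that acts early in assembly of the bacterial large subunit, had 10.10 on SH3 and 10.66 on SH1, against 11.03 on SCR and 10.82 on LEN-GFP. SH3 fell by 0.83 on the log2 scale (SE 0.13, adjusted p = 0.00443 in limma), and SH1 was also under both controls, at -0.26, without a call. MRPL9 (probe set 7920047), with a bacterial counterpart near the stalk where the empty tRNA leaves, had 10.82 on SH3 and 11.22 on SH1, against 11.33 on SCR and 11.36 on LEN-GFP. Its difference was -0.52 on SH3 (SE 0.10, adjusted p = 0.0121 in limma) and -0.13 on SH1. MRPS34 (probe set 7998585), a mitochondrial-only protein needed for a stable small subunit, had 9.74 on SH3 and 10.09 on SH1, against 10.17 on SCR and 10.27 on LEN-GFP. Its difference was -0.48 on SH3 (SE 0.13, adjusted p = 0.0391 in limma) and -0.13 on SH1. MRPL19 and MRPL57, with values given above, were at -0.65 (SE 0.14, adjusted p = 0.0178 in limma) and -0.55 (SE 0.14, adjusted p = 0.0319) on SH3, and both at -0.33 on SH1. The calls of MRPL33, MRPL20, MRPL19, MRPL47 and MRPL9 held under each filter, scaling, offset and probe set rule tried, and without the intensity trend. Single-hairpin fits were not run with each gene's own variance alone. MRPL57, MRPS17 and MRPS34 lost their calls when arrays were centred on their medians (adjusted p 0.0694, 0.0995 and 0.0834). MRPS17 and MRPS34 also missed the threshold when dim genes were kept (0.0752 and 0.0621), and MRPS17 with 16 added to each intensity (0.0505).

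**Figure D1:**
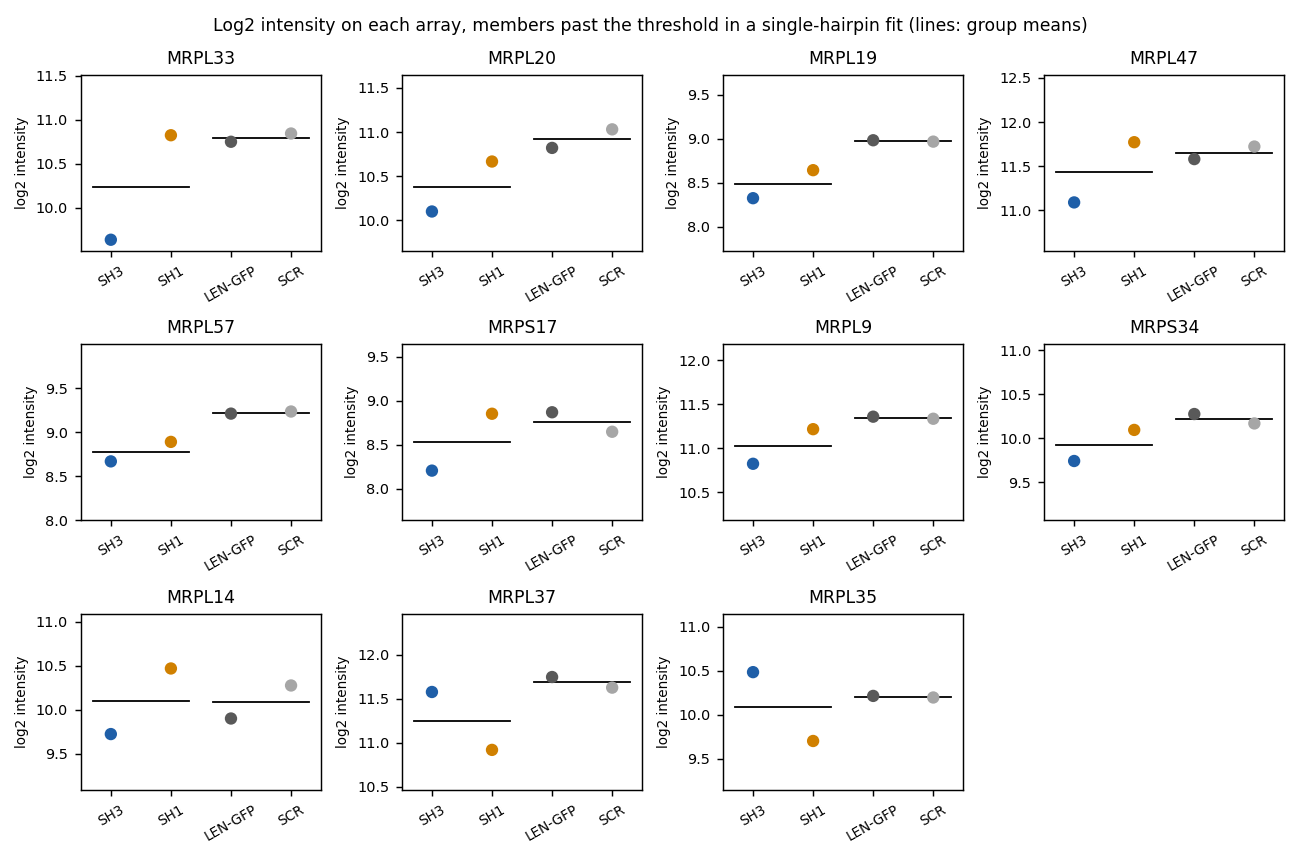
Log2 intensity (vertical axes, each spanning 2 units) on the arrays SH3, SH1, LEN-GFP and SCR for the 11 members past the threshold in the fit of single hairpins, against the controls or against each other, with horizontal lines at the mean of the 2 hairpins and of the 2 controls. MRPL33 is low on SH3 alone, MRPL37 on SH1 alone, and MRPL19 and MRPL57 are low on both hairpins.

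SH1 gave another gene. Set against the same controls, 1 member fell on SH1 in limma (1.37%, background 0.248% for lower genes) and 0 rose (background 0.155%, or 0.403% for either direction). At an unadjusted p under 0.05, 7 members were lower (9.59%, background 5.47%) and 1 was higher (MRPL14, background 4.57%). MRPL37 (probe set 7901601), a mitochondrial-only protein of the large subunit, had 11.58 on SH3 and 10.92 on SH1, against 11.63 on SCR and 11.75 on LEN-GFP. SH1 stood well under the other 3 arrays, at 58.7% of the control level (difference -0.77, SE 0.10, adjusted p = 0.0240 in limma), and SH3 was at -0.11. The call ended when dim genes were kept (adjusted p 0.0572), with centred arrays (0.0564) and without the intensity trend (0.0932). MRPL43, also mitochondrial-only, was the next lowest on SH1 at -0.58, with 8.79 on SH3 and 8.37 on SH1, against 8.91 on SCR and 9.00 on LEN-GFP, and did not pass (adjusted p = 0.153 in limma). Counted over all members, 40 of 73 were lower on SH1 (54.8%, background 50.2%), with a median of -0.02 against -0.00062 over all genes.

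The 2 hairpins were compared with each other on every gene, in the same fit, with its error drawn from the controls over all genes. SH3 was below SH1 on 50 of 73 members (68.5%, background 49.9%), and 6 members differed past the threshold (8.22%, background 8.49%). Of these, 4 were lower on SH3 (5.48%, background 4.48%) and 2 were higher (2.74%, background 4.01%), so the share of members that differed was near that of all genes. MRPL33 differed by -1.19 (SE 0.14, adjusted p = 0.00184 in limma) and MRPL47 by -0.68 (SE 0.12, adjusted p = 0.0120). MRPL37 differed the other way, by 0.66 (SE 0.12, adjusted p = 0.0133). MRPL35, with a bacterial counterpart, had 10.48 on SH3 and 9.70 on SH1, against 10.19 on SCR and 10.21 on LEN-GFP, so that the hairpins lay on opposite sides of the controls and differed by 0.78 (SE 0.14, adjusted p = 0.0123 in limma). MRPL14, which sits at the subunit interface and binds the assembly factor MALSU1, had 9.72 on SH3 and 10.47 on SH1, against 10.28 on SCR and 9.90 on LEN-GFP. The difference between the hairpins was -0.75 (SE 0.19, adjusted p = 0.0456 in limma), but the controls also lay 0.38 apart, the widest control gap of the 73 members. MRPL20 differed by -0.57 (adjusted p = 0.0496 in limma), and the calls of MRPL14 and MRPL20 ended with no filter on dim genes, with centred arrays and without the trend (adjusted p 0.0719 to 0.0886). ZFX itself did not differ detectably between the hairpins (-0.02, SE 0.14, adjusted p = 0.969 in limma).

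**Figure D2:**
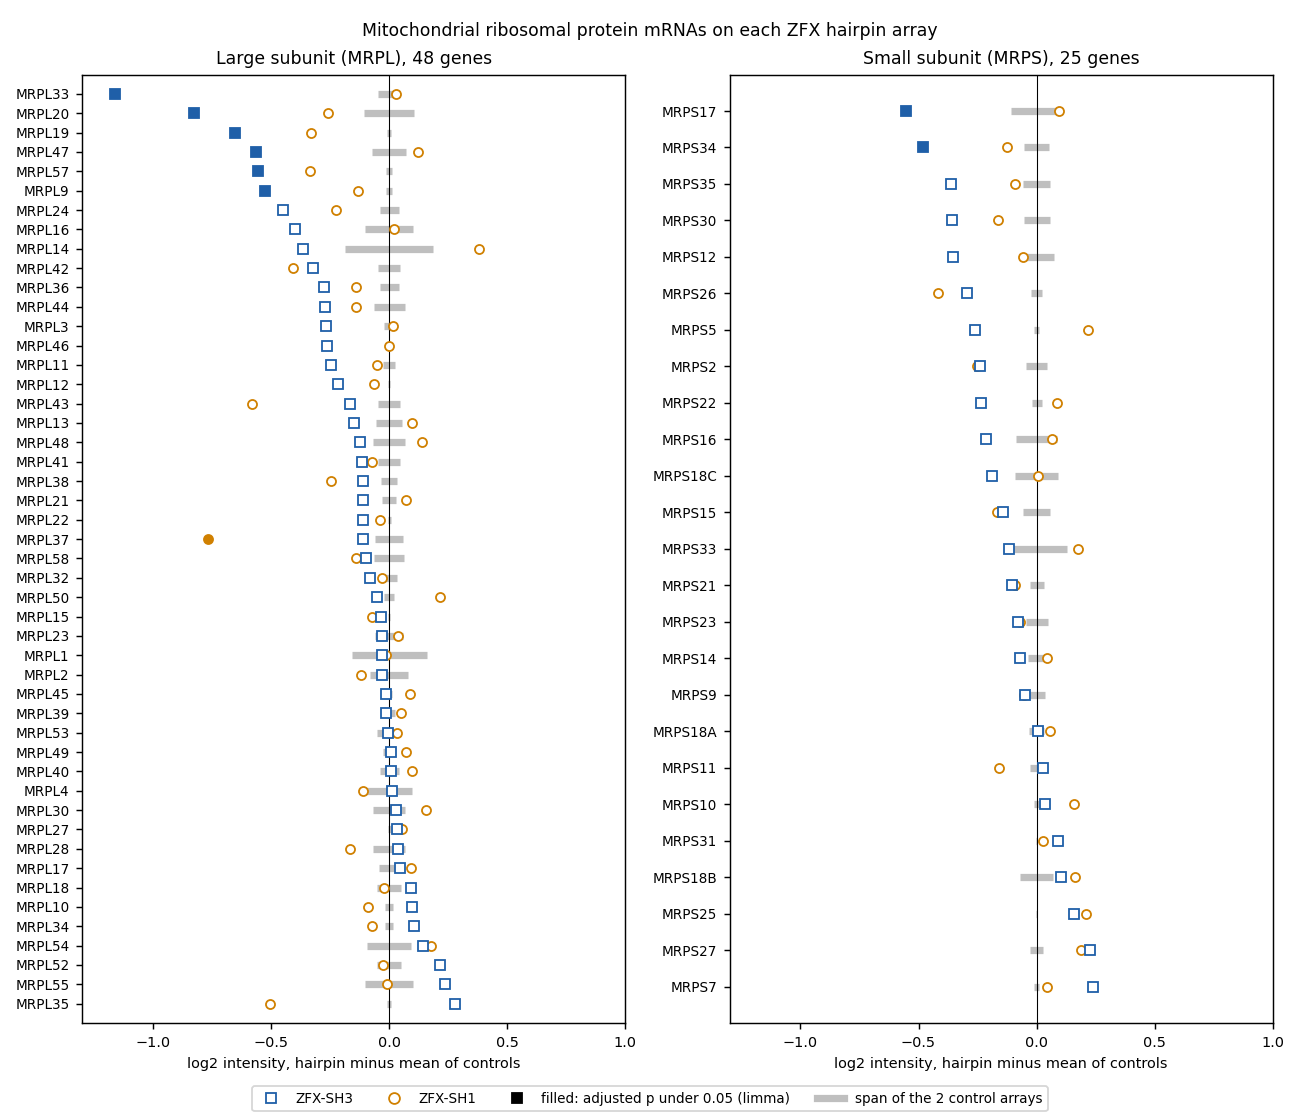
Difference of each hairpin array from the mean of the 2 controls (horizontal axis, log2 intensity) for 48 large-subunit genes (left) and 25 small-subunit genes (right), ordered by SH3, with SH3 as squares, SH1 as circles, filled symbols for an adjusted p under 0.05 and grey bars for the span of the controls. The 8 filled squares all lie left of 0, and the 1 filled circle is MRPL37.

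The large and small subunits were then set side by side on each hairpin array. On SH3 the median difference from control was -0.10 for 48 large-subunit genes and -0.12 for 25 small-subunit genes, a large minus small difference of 0.01. On SH1 the medians were -0.03 for the large and 0.03 for the small subunit, a large minus small difference of -0.05. The controls differed from each other in the same measure by 0.06 (SCR minus LEN-GFP, -0.0040 for the large and -0.06 for the small subunit). With subunits taken by symbol, their contrast on either hairpin was therefore about as large as between the 2 controls or smaller. Its sign differed between the hairpins. Taken as means over members, the large minus small difference was -0.02 on SH3 and -0.06 on SH1.

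Large-subunit genes ranged from -1.16 to 0.28 on SH3 and from -0.77 to 0.38 on SH1, while the small-subunit genes, which are fewer, ranged from -0.55 to 0.24 on SH3 and from -0.42 to 0.22 on SH1. Quartiles on SH3 were -0.27 and 0.01 for the large and -0.26 and 0.03 for the small subunit. On SH3, 34 of 48 large-subunit genes (70.8%) and 17 of 25 small-subunit genes (68%) were lower than control, against 50.3% of all genes. Calls covered 6 of 48 (12.5%) and 2 of 25 (8%), against 7.00% of all genes, so that the share of the small subunit was near the background. On SH1, 29 of 48 (60.4%) and 11 of 25 (44%) were lower, against 50.2% of all genes. Both hairpins lay below both controls on 17 large-subunit genes (35.4%) and 9 small-subunit genes (36%), against 19.0% of all genes, and above both on 3 (6.25%) and 6 (24%), against 18.2%.

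**Figure D3:**
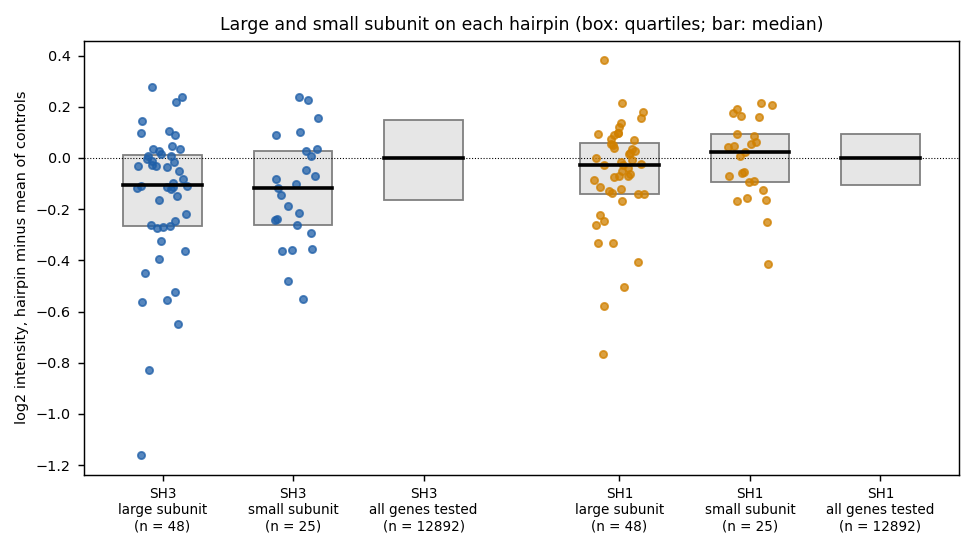
Difference from the mean of the controls (vertical axis, log2 intensity) on SH3 (left) and SH1 (right), with a point for each large-subunit and small-subunit gene, boxes for the quartiles and bars for the median, beside the box of all 12892 genes tested. Medians of both subunits lie near -0.1 on SH3 and within 0.03 of 0 on SH1.

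The names of the subunits do not match the structures in every case. MRPS18A and MRPS30 carry small-subunit symbols but are found in the large subunit of mammalian mitochondrial ribosomes. Moving them left the medians of both subunits as they were on both hairpins. The large minus small difference between the controls (SCR minus LEN-GFP) then was 0.04, against -0.05 on SH1 and 0.01 on SH3. MRPS18A, MRPS18B and MRPS18C are related to a single bacterial protein. Their differences of the pair were 0.03, 0.13 and -0.09, none past the threshold. MRPS18B has 3 probe sets and MRPL20 has 2, with the same values in each, so that these sets give no separate measurement. The 2 probe sets of MRPL36 gave -0.21 and 0.06 for the pair of hairpins, and its direction is not settled by these data.

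Members with bacterial counterparts and those found only in mitochondria are given side by side, where 50.3% of all genes were lower on SH3 and 7.00% were called lower. Of 29 large-subunit genes with counterparts, 20 were lower on SH3 and 5 were called (MRPL33, MRPL20, MRPL19, MRPL47 and MRPL9), with a median of -0.11. Of 18 mitochondrial-only genes of that subunit, 14 were lower and 1 was called (MRPL57), with a median of -0.10. In the small subunit, 10 of 13 genes with counterparts were lower on SH3 (median -0.14, with MRPS17 called) and 6 of 9 mitochondrial-only genes (median -0.12, with MRPS34 called). On SH1 the medians of these 4 groups lay between -0.04 and 0.03. MRPL55, MRPS18A, MRPS18B and MRPS30 were placed in none of these groups.

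Promoter sequence was looked at for the 8 members that fell on SH3 and for MRPS27 and MRPS25, the members of widest gap above the controls. Shown are the 100 bases upstream of each start in RefSeq (GRCh38.p14), chosen after values were seen, 5′ to 3′ on the strand of the gene. Capitals mark, on either strand, the letters CCGGAAG (bound by ETS factors such as GABPA), AAGATGG (YY1) and GCGCA, any base, GCGC (NRF1), factors known for their part in nuclear genes of mitochondria, and AGGCCT, a core of the ZFX motif.
MRPL33 (chr2:27771619-27771718, + strand): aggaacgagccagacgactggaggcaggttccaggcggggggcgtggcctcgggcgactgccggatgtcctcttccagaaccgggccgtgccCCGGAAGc
MRPL20 (chr1:1407294-1407393, - strand): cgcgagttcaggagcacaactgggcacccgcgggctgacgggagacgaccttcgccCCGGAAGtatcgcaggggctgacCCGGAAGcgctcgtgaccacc
MRPL19 (chr2:75646683-75646782, + strand): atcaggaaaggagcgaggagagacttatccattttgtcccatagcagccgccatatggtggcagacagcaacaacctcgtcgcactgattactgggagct
MRPL47 (chr3:179604639-179604738, - strand): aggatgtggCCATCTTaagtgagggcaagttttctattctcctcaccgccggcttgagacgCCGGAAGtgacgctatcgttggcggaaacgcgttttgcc
MRPL57 (chr13:21176558-21176657, + strand): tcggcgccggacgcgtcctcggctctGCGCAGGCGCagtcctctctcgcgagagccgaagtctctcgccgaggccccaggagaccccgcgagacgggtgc
MRPL9 (chr1:151763497-151763596, - strand): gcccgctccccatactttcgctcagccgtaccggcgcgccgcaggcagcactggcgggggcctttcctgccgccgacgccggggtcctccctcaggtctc
MRPS17 (chr7:55951777-55951876, + strand): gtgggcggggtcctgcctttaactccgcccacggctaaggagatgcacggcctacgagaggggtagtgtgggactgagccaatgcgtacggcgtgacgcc
MRPS34 (chr16:1773135-1773234, - strand): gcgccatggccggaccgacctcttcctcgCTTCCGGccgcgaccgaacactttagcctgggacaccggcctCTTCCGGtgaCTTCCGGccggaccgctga
MRPS27 (chr5:72320241-72320340, - strand): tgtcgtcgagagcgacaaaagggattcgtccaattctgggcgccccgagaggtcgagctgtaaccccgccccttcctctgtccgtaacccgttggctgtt
MRPS25 (chr3:15065316-15065415, - strand): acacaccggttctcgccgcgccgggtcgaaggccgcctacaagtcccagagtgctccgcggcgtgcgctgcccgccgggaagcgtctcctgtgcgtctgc

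The ETS letters stand in the promoters of MRPL33, MRPL20, MRPL47 and MRPS34, with 3 copies in MRPS34 and 2 in MRPL20, the YY1 letters in that of MRPL47, and the NRF1 letters in that of MRPL57. In the wider window from 250 bases upstream to 50 downstream, a promoter was listed for 66 of the 73 members. The ETS letters were in 28 of these 66 (42.4%), against 14.2% of 15842 protein-coding promoters, and the YY1 letters in 21 (31.8%), against 6.4%. In none of the 66 did these letters overlap, and 41 held at least 1 of the 2 motifs. The NRF1 letters were in 8 (12.1%, against 8.6%) and the ZFX letters in 9 (13.6%, against 11.0%). Among the 8 members that fell on SH3, 4 held the ETS letters, 2 the YY1 letters, 1 the NRF1 letters and 0 the ZFX letters, where 24, 19, 7 and 9 of the other 58 held them. Median GC content was 60.2% in members and 62.7% in all protein-coding promoters.

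MRPL46 and MRPS11 are immediate neighbours on chromosome 15, the only such pair among the 73 members. MRPL46 had 10.32 on SH3 and 10.58 on SH1, against 10.58 on both controls, and MRPS11 had 11.26 on SH3 and 11.08 on SH1, against 11.21 on SCR and 11.26 on LEN-GFP. Neither gene passed the threshold, and they differed in which hairpin was the lower.

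Other lists of mitochondrial gene expression had medians below 0 on SH3 and close to 0 on SH1. Of 15 translation factors measured, 13 were lower on SH3 (86.7%, background 50.3%) and 0 were called (background 7.00%). The list median was -0.20 on SH3, with 0.01 on SH1. TACO1, a translational activator of a cytochrome oxidase subunit, was at -0.44 on SH3 and -0.13 on SH1. TUFM, the elongation factor that brings tRNA to the ribosome, was at 0.09 on SH3 and 0.06 on SH1. Of 26 assembly factors, 15 were lower on SH3 (57.7%, background 50.3%), with a median of -0.07, and 0.0075 on SH1. Of these 26, 2 fell, a share near the background of 7.00%. They were the small-subunit chaperone ERAL1 (-0.45, adjusted p = 0.0221 in limma) and MTERF3 (-0.59, adjusted p = 0.0294). YBEY, an RNase of ribosome maturation, was higher on both hairpins, at 0.21 on SH3 and 0.33 on SH1, without a call. A list of 4 ribosomal proteins under other symbols (DAP3, CHCHD1, PTCD3 and GADD45GIP1) and OXA1L, which is no ribosomal protein but inserts the products in the membrane, was at -0.05 on SH3 and at 0.04 on SH1 in the median, and none was called.

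Mitochondrial transcription and RNA processing gave the list of lowest median on SH3. This list also names POLG and TWNK, which act in replication of mitochondrial DNA. Of 20 genes measured, 15 were lower on SH3 (median -0.23, and 0.0074 on SH1) and 4 fell, where 7.00% of all genes were called lower. TFAM, which packages mitochondrial DNA and starts its transcription, had 9.53 on SH3 and 10.19 on SH1, against 10.27 on SCR and 10.25 on LEN-GFP (difference on SH3 -0.73, adjusted p = 0.00651 in limma). SUPV3L1, the helicase of RNA decay, was at -0.66 (adjusted p = 0.00804 in limma), TWNK, the DNA helicase, at -0.64 (adjusted p = 0.0175) and TFB2M, a transcription factor, at -0.53 (adjusted p = 0.0457). The same 4 genes were between -0.21 and 0.02 on SH1, with no call. HSD17B10 was higher on both hairpins (0.47 on SH3, 0.55 on SH1), but SCR and LEN-GFP lay 0.83 apart on it. Of 9 regulators, 5 were lower and 4 higher on SH3 (median -0.05), and 1 was called against a background of 7.00%, MYC, which fell by 0.99 on SH3 and was at -0.20 on SH1. NRF1 and GABPA were at -0.21 and -0.10 on SH3. The coactivator PPARGC1A was at 0.22 on SH3 and 0.46 on SH1, and ESRRA, a nuclear receptor, at 0.22 on SH3 and 0.11 on SH1, without a call. Genes encoded in mitochondrial DNA were not analysed here.

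**Figure D4:**
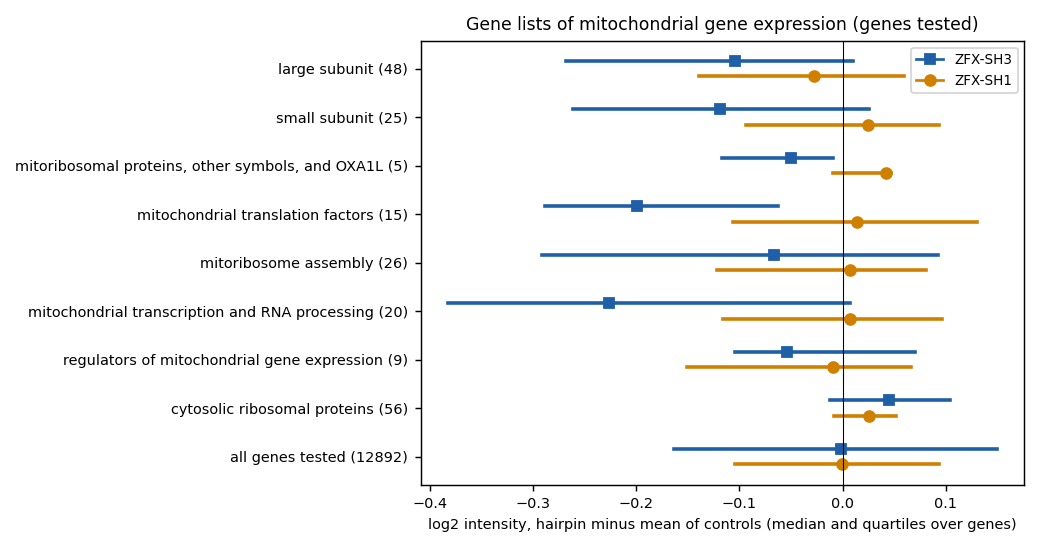
Median (symbols) and quartiles (lines) over the genes of each list of the difference from the mean of the controls (horizontal axis, log2 intensity), with SH3 as squares and SH1 as circles, and the number of genes tested in brackets. Every mitochondrial list has its SH3 median below 0, from -0.05 to -0.23, while cytosolic ribosomal proteins are at 0.05.

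Cytosolic ribosomal proteins lay slightly above 0 in the median. Of 56 tested, 16 were lower on SH3 (28.6%, background 50.3%) and 19 on SH1 (33.9%, background 50.2%). Medians were 0.05 on SH3 and 0.03 on SH1, and 1 was called lower on SH3, against a background of 7.00%. As both hairpins are set against the same 2 controls, likeness between their lists rests in part on those arrays. The difference SH3 minus SH1 of a gene does not use the control mean, and only its error draws on the controls. The 9 monocytic markers were at 0.14 on SH3 and at -0.00076 on SH1 in the median, with CSF1R called higher on SH1 (0.96, adjusted p = 0.0355 in limma), and their part in the lower mitochondrial lists was not tested.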

How the data were processed

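The authors deposited 1 table of linear intensities for 33297 probe sets on 4 arrays. Affymetrix Expression Console 1.1 and RMA are named in the submitters' processing notes, while how RMA's log2 output became linear is not stated there. Per the labels' protocols, 200 ng of total RNA was amplified and labelled with biotin. RMA usually includes quantile normalization, which hides changes in total RNA. Folds of dim genes tend to be compressed in array values. No detection calls were used here.

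The log2 of each intensity was taken as it stood. Names came from the platform annotation (19460 with 1 symbol, 1754 with several, 12083 unnamed) and 19429 matched RefSeq (GRCh38.p14). The probe set with the highest mean stood for its gene. The 30% of genes with the lowest mean (under log2 6.70) were left out, which left 12892. Fits used limma 3.58.1 in R 4.3.3 (lmFit, eBayes with trend). Tests were two-sided, and p-values were adjusted by Benjamini-Hochberg over all 12892 genes at a threshold of 0.05. Knock-down and control were compared 2 against 2 (2 residual degrees of freedom, prior 2.95), and SH3, SH1 and the control pair as 3 groups (1 residual degree of freedom, prior 7.85). The fits were run on simulated data with the same noise for every gene and changes larger than most of those called in members. That simulation does not show how well differences of the called sizes are found. Lists are described by counts and medians only. Arrays are few, and that number limits the precision.

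The members, the 16 gene lists, the cytosolic comparison and the tests were chosen with earlier results of these data known. Named members were those past the threshold in any fit, the extremes of each subunit per comparison, the 4 widest gaps per direction, the MRPS18 family and genes whose probe sets disagree. From the other lists, called genes and extremes were named. Promoters to print were chosen after values were seen. Alternatives were other filters, offset, scaling, probe set rule, variance model and each array left out.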

Additional observations from a re-analysis of the deposited data

Results flagged for a closer look

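The 2 hairpins differed past an adjusted p of 0.05 on 6 members (SH3 minus SH1, limma). The error was drawn from the controls over all genes, and each hairpin is a single array. MRPL33 differed by -1.19, with 9.63 on SH3 and 10.82 on SH1. MRPL47 differed by -0.68, with 11.09 on SH3 and 11.77 on SH1. MRPL14 differed by -0.75, where the controls themselves lay 0.38 apart. MRPL20 differed by -0.57 and was below both controls on both hairpins. MRPL35 differed by 0.78 and MRPL37 by 0.66, both lower on SH1 than on SH3. ZFX was at 68.9% of control on SH3 and 69.7% on SH1. Over all genes 8.49% differed between the hairpins, and 8.22% of members. The cause of these differences was not tested.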

How the results depend on the processing

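No paired analysis was possible because the labels give no replicate numbers. For the pair of hairpins against the controls, leaving out 1 array gave 0 to 1625 genes and 0 to 7 lower members past the threshold. The 7 came without SH1, 1 member (40 genes) came without SH3, and 0 without either control. Each such fit assumes that the lone array varies like the other pair. Differences of the pair changed sign with an array left out on 11 named members, with ranges of -1.16 to 0.0273 for MRPL33, -0.56 to 0.12 for MRPL47, -0.55 to 0.0939 for MRPS17, -0.36 to 0.38 for MRPL14, -0.50 to 0.28 for MRPL35, -0.0525 to 0.21 for MRPL50, -0.0091 to 0.24 for MRPL55, -0.0268 to 0.22 for MRPL52, -0.26 to 0.22 for MRPS5, -0.19 to 0.0067 for MRPS18C and -0.0017 to 0.0619 for MRPS18A. Genes called on SH1 (52) numbered 20 with no filter on dim genes, 145 after quantile normalization, 23 with centred arrays and 4 without the trend, and its member MRPL37 was not called (0 members) with no filter, centred arrays or no trend. On SH3, 5 members were called with centred arrays in place of 8, which is 6.85% of members where 9.77% of all genes were called in either direction. Between the hairpins, centred arrays gave 688 genes in place of 1095, and 2 lower members in place of 4, as did no filter and no trend. The median of the large subunit on SH3 (-0.10) was -0.15 as a mean, -0.0994 with the lowest 50% of genes left out, -0.0890 after quantile normalization, -0.0946 with centred arrays and -0.0930 to -0.0652 with a control left out, and that of the small subunit was -0.13 to -0.0735 with a control left out. On SH1 the large subunit (-0.03) was at -0.0669 as a mean, -0.0414 with centred arrays, -0.0249 with the mean of all probe sets and -0.0528 to -0.0265 with a control left out. The small subunit on SH1 (0.0251) was at -0.0048 as a mean, 0.0118 with centred arrays and 0.0090 to 0.0165 with a control left out, so that its sign is not settled. The large minus small difference on SH3 (0.0144) was -0.0245 as a mean, 0.0069 with the offset, 0.0241 with the lowest 50% of genes left out, 0.0082 without LEN-GFP and 0.0347 without SCR, and on SH1 it lay between -0.0640 and -0.0430 under the alternatives tried. With a control left out, single-hairpin values have no test. The cause of these changes was not tested.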
